A study of Mus musculus with 6 samples.

Results

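The arms of the mouse miR-126a precursor, mmu-miR-126a-3p and mmu-miR-126a-5p, were measured in Hepa1-6 tumours. They were taken by name from the probes of the array that are not controls, which gave 2 of 1881 miRNAs and 4 of 4415 probes, with 15 spots per probe on each array. The samples were tumours of C57BL/6 mice, all inoculated in the right flank with 0.1 ml of Hepa1-6 cells, a mouse hepatoma line, and labelled as 28 d of age. In 3 mice the treatment was GLE, which is given only by these letters, with a daily total of 0.023 g stated for a mouse of 10 g. The 3 model mice received 0.2 ml of 0.9% NaCl once daily for 28 days. Every sample is described as 1 mouse, and the total RNA of its tumour went to 1 one-colour (Cy3) Agilent miRNA array, so the arms were read from a mixture of tumour, vessel, blood and stromal cells. In such bulk RNA, fewer cells of a type and less RNA per cell cannot be told apart.

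An miRNA hairpin is cut by Drosha and Dicer into a duplex of a 5p and a 3p strand, and either strand can be loaded into an Argonaute protein, where its seed pairs with target messages. The miR-126 hairpin lies in an intron of Egfl7, a gene of endothelial cells, and its 3p strand is among the best known endothelial miRNAs. The 3p strand restrains Spred1 and Pik3r2, inhibitors of the signal that follows VEGF and FGF, and the 5p strand has been described to restrain Dlk1 in endothelium.

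The hairpin is shown first because both arms and all 4 probes lie on it, with the stretches that the longer probe of each arm pairs with in capitals. The sequences of hairpin and mature strands are those of RefSeq on GRCm38.p6, where the hairpin occupies chr2:26591357-26591429 on the plus strand, inside the span of Egfl7 at chr2:26581083-26592682. It lies 10274 bases from the lower end of that span and 1253 from the upper end. Of the members, 1 of 2 was matched to a mature entry, and its seed, bases 2 to 8, is in capitals in the second line.
Mir126a hairpin: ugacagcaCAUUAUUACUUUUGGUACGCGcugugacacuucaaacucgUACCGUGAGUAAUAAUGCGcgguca
mmu-miR-126a-3p: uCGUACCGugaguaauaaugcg

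The mature 3p strand has 22 bases and lies at chr2:26591402-26591423. Its seed was found in 1 of 1738 mature entries searched, which is the strand itself, so no other miRNA of that table shares it.

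The probes are shown because the arms are compared through them, and the probes of an arm differ by 1 base, which is in capitals. Each is DNA complementary to the arm, copied from the deposited files.
3p, 18 bases: cgcattattactcacggt
3p, 19 bases: cgcattattactcacggtA
5p, 20 bases: cgcgtaccaaaagtaataat
5p, 21 bases: cgcgtaccaaaagtaataatG

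The 3p probes pair with bases 5 to 22 and 4 to 22 of the mature strand, and so reach only the last part of its seed. The 5p probes pair with hairpin bases 10 to 29 and 9 to 29. The stretch each of the 4 probes pairs with was found whole in 0 other mature entries. The longest run shared with another entry was 10 bases for the 3p probes, with miR-126b-3p, and 9 bases for the 5p probes, with miR-126b-5p. Both of those come from the opposite strand of the same locus and serve below as probes of nearly the same place. Their mature strands are shown to compare with the hairpin.
mmu-miR-126b-3p: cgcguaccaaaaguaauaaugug
mmu-miR-126b-5p: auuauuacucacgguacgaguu

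Signals are background-subtracted intensities averaged over the spots of a probe without an outlier mark, and a probe was called detected on an array when over a share of 0.5 of its used spots stood well above background. To make arrays comparable, signals were expressed relative to the array's own 75th percentile, taken from the 636 probes that every array detected, and put on the log2 scale. These percentiles were 203 to 364 intensity units on GLE arrays and 211 to 313 on model arrays, and 378 to 458 miRNAs were detected per array. All arrays share 1 slide and 1 scan, but GLE arrays fill its row 1 and model arrays its row 2, so slide row and group cannot be told apart.

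The 3p arm was measured on every array, with all 177 of 177 used spots of its probes well above background. On the log2 scaled scale its level, the mean of its probes, was 1.88, 1.52 and 2.00 in GLE replicates 1 to 3. In the model tumours it was 1.44, 1.20 and 1.29. Every GLE tumour stood above every model tumour, with GLE replicate 2 close to model replicate 1. The same order of groups, with no overlap and GLE above, was found in 18 of 388 tested miRNAs, or 4.64%.

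The group means of the 3p arm were 1.80 ± 0.25 (SD, n = 3) for GLE and 1.31 ± 0.12 (SD, n = 3) for model. GLE minus model was 0.49 ± 0.19 (log2, SE), a fold of 1.41 with a 95% interval of 1.03 to 1.92. In limma's fit over all 388 miRNAs the unadjusted p was 0.0346 and the Benjamini-Hochberg adjusted p 0.937, so the difference did not pass the threshold of 0.05. The two-sided exact permutation test gave p = 0.1, which is the smallest that 20 relabelings of 3 against 3 can give.

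Against the rest of the array, limma called 0% of 388 miRNAs, and the smallest adjusted p of any was 0.937. At an unadjusted p under 0.05, 6 miRNAs were higher in GLE, 1.55% of those tested, and 0 were lower. The 3p arm was the third by p and the 37th by size of difference, with 9.28% of tested miRNAs showing a larger difference in favour of GLE. The median difference over all tested miRNAs was 0.0078, and 198 of 388 were above 0.

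GLE replicate 2 weighed most on this result. Without it, the difference of the 3p arm was 0.63 and its adjusted p in limma 0.0797. Many miRNAs moved with this removal: 107 of 388 then had an unadjusted p under 0.05 in limma, against 6 with all arrays. Limma called 2 miRNAs, and the 3p arm was not among them. This array was singled out after its effect was seen, so the lower p is no support for a difference. Leaving out GLE replicate 3 gave a difference of the 3p arm of 0.39, the lowest value among the arrays left out in turn. Its adjusted p in limma was 0.996.

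Probe by probe, the 3p arm gave the same picture. The intensity of the 18-base probe was 580, 826 and 752 units in GLE replicates 1 to 3. In model replicates 1 to 3 it was 665, 419 and 410 units. Before scaling the groups overlapped, since model replicate 1 exceeded GLE replicate 1, and the exact permutation p of the log2 intensity was 0.2.

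After scaling, the 18-base probe stood at 1.51, 1.18 and 1.64 (log2) in GLE tumours and at 1.09, 0.86 and 0.96 in model tumours, with no overlap. Its difference was 0.48 ± 0.19 (SE), and in limma's fit over 720 probes the unadjusted p was 0.0382 and the adjusted p 0.954.

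The 19-base probe gave 962, 1324 and 1233 intensity units in GLE and 1076, 673 and 644 units in model replicates. Scaled, these were 2.24, 1.86 and 2.36 against 1.78, 1.54 and 1.61 (log2). Unscaled, GLE replicate 2 was the highest of all arrays, and its 75th percentile, 364 units, was also the largest. After scaling, here too GLE replicate 2 was the lowest of its group and model replicate 1 the highest of its own. The difference was 0.51 ± 0.19 (SE), and limma's unadjusted p was 0.0340, the adjusted p 0.954.

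Groups without overlap and GLE above were seen for 34 of 720 probes, or 4.72%, and limma called 0% of the probes, with 10 at an unadjusted p under 0.05. The probes of the 3p arm share target and RNA and are not independent of each other.

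Their spots were tight: the coefficient of variation over the spots of an array was 1.75% to 3.20% for the 18-base probe and 1.36% to 2.51% for the 19-base probe. The intensity of the 19-base probe over that of the 18-base probe was 1.57 to 1.66 on every array. The log2 of this ratio differed by 0.032 between GLE and model, with an exact permutation p of 0.3. Both probes thus gave the same ordering of tumours after scaling.

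**Figure D1:**
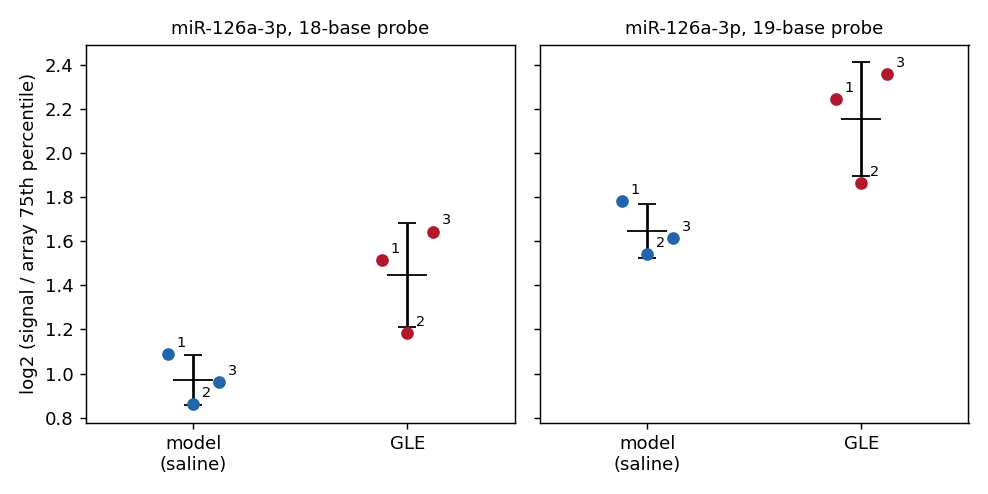
Scaled signal (log2 of signal over the array's 75th percentile) of the 18-base probe on the left and the 19-base probe on the right, 1 point per tumour with its replicate number, mean as a horizontal line and SD as the bar (n = 3 per group). In both panels the GLE points lie above the model points, and GLE replicate 2 lies nearest to them.

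The other arm was near the limit of the array. The 21-base 5p probe gave 12.6, 21.04 and 18.6 intensity units in GLE replicates 1 to 3. In model replicates 1 to 3 it gave 16.998, 9.27 and 11.3 units. It was detected in GLE replicates 2 and 3 and in model replicate 1, which are the arrays where the unscaled signal was highest, and 48 of its 90 spots were well above background.

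The 20-base 5p probe gave 7.93, 10.4 and 8.95 units in GLE and 10.1, 3.55 and 6.89 units in model replicates. Among its 89 used spots 2 passed the background test, and it was detected on 0 of 6 arrays. The coefficient of variation over spots was 11.9% to 37.8% for the 21-base probe and 22.4% to 77.8% for the 20-base probe.

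Both 5p probes nevertheless exceeded the mean of each of the 7 negative control probes on all 6 arrays. The negative controls averaged −1.01 to 0.55 intensity units per array over 976 to 986 spots, with a spot SD of 2.25 to 2.39, and the highest mean of a control probe was 1.68. Passing the highest control mean is a low bar, and the share of all probes that pass it was not counted. In GLE replicate 2 the longer miR-126b-3p probe passed it at 1.16 units, with 53.6% of the array's probes dimmer. Over the arrays, 79.7% to 84.5% of probes were dimmer than the 21-base 5p probe and 70.5% to 77.8% dimmer than the 20-base probe. The 5p signal was therefore low but above the means of the control probes.

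Probes to the opposite strand of the locus, which pair with miR-126b, read near the controls. Those for miR-126b-3p read −1.66 to 2.44 units, with 0 of 171 used spots well above background, and its 21-base probe exceeded every control probe mean on 2 of 6 arrays. Those for miR-126b-5p read −2.60 to −0.17 units, with 0 of 178. No spot on that strand passed the background test at a place where the 5p probes of the sense strand read 3.55 to 21.04 units.

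**Figure D2:**
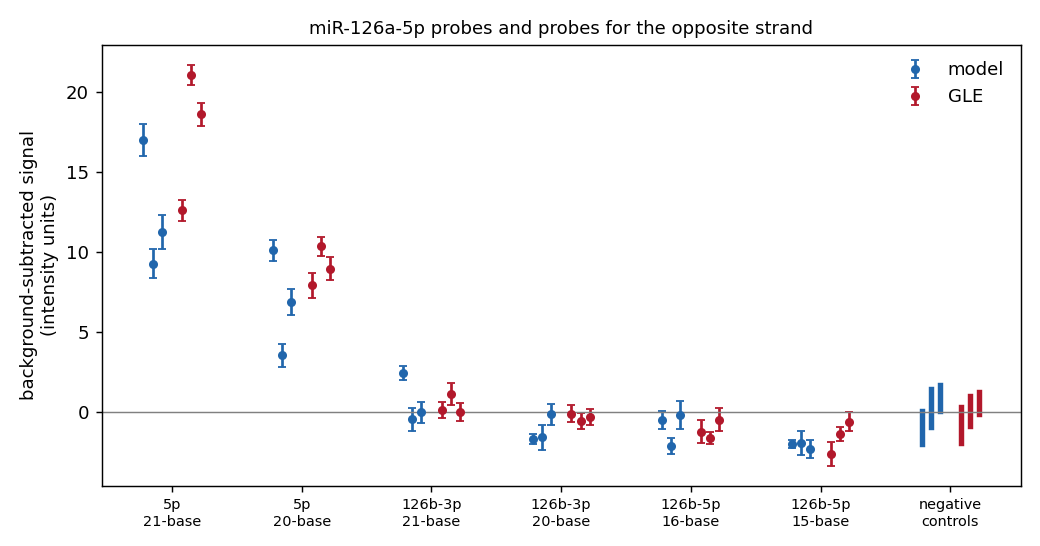
Background-subtracted signal in intensity units of the 5p probes and of the probes for miR-126b, with 1 point per tumour and the SE over spots as the bar, and at the right the range of the 7 negative control probe means on each array. The 5p probes read 3.55 to 21.04 units, and the miR-126b probes lie at −2.60 to 2.44 units, around the negative controls.

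Because of this low signal the 5p arm did not pass the filter for the fit, which asked for detection in every tumour of GLE, of model or of both. Scaled values were raised to a floor of −4.26 (log2) where they fell below it, which corresponds to 10.6 to 19.03 intensity units depending on the array. The 20-base probe was at the floor on all 6 arrays and so gave no difference there. The 21-base probe was at the floor in model replicate 2.

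Without the floor, the 21-base probe stood at −4.01, −4.11 and −3.70 in GLE tumours and at −4.20, −4.64 and −4.23 in model tumours. Its groups did not overlap, with a difference of 0.42 (log2) and an exact permutation p of 0.1, again the smallest possible. Only 3 of these 6 values come from arrays where the probe was detected. Among the 720 probes that passed the filter, on floored values, 4.72% had groups without overlap and GLE above. The share among all probes without the floor was not counted. The 20-base probe without the floor differed by 0.45, with overlapping groups and an exact permutation p of 0.4.

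Over both 5p probes the difference was 0.14 with the floor and 0.43 without it, with exact permutation p-values of 0.1 and 0.3. Without the floor and without model replicate 2, it was 0.18. With the floor and without GLE replicate 3, it was 0.084, and the 21-base probe then gave 0.17 against 0.29 with all arrays. The ratio of the 5p probes varied from 1.59 to 2.61 between arrays, a wider range than for the 3p probes.

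The arms were then set against each other within each tumour, as 3p minus 5p on the log2 scale. Levels of different probes are not amounts of RNA, so only the difference of this quantity between groups is read. Without the floor it was 6.22, 6.15 and 6.22 in GLE and 6.01, 6.53 and 5.87 in model tumours. The groups overlapped, GLE minus model was 0.060, and the exact permutation p was 0.9. Model replicate 2, whose 5p signal was the lowest, was the only model tumour above the GLE tumours. Without it GLE minus model was 0.26, with an exact permutation p of 0.1, the smallest possible. The groups then no longer overlapped, which follows from the choice of the array left out and is no support for a difference.

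With the floor it was 6.01, 5.71 and 5.98 in GLE and 5.67, 5.46 and 5.53 in model tumours, a difference of 0.35 with an exact permutation p of 0.1. The 20-base probe is constant at the floor, so most of this quantity is the 3p arm itself. The difference between the arms thus depended on the floor and on model replicate 2. Its permutation tests could reach no p below 0.1, so they could not pass the threshold of 0.05 whatever the values.

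The separation of the groups in the 3p arm came with scaling, and it was set against other ways to scale. GLE minus model was 0.40 with the 75th percentile of all probes, 0.43 with the median of detected probes, 0.46 with quantile normalisation and 0.57 with no scaling. Relative to the median difference of all tested miRNAs under the same scaling it was 0.48 to 0.51. The groups stayed apart under all but the last pair of these: with quantile normalisation GLE replicate 2 and model replicate 1 tied at 9.45, and with no scaling they overlapped.

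In the authors' deposited table of values per miRNA, which is on a log2 scale, the 3p arm read 8.95, 8.49 and 9.32 in GLE and 8.55, 8.49 and 8.52 in model replicates. GLE replicate 2 equalled model replicate 2 there and lay below the other model tumours. The difference in the authors' deposited table was 0.40, and its adjusted p in limma was 0.818.

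For the 5p arm the authors' deposited table gave 2.14, 2.72 and 2.80 in GLE and 2.39, −3.17 and 2.40 in model replicates. The value of model replicate 2 is the lowest of its column, which 75.1% of miRNAs share. With it GLE minus model was 2.01, and without it 0.16, in the authors' deposited table. That single entry turned the arm difference in the authors' deposited table to −1.61, against 0.23 without it.

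**Figure D3:**
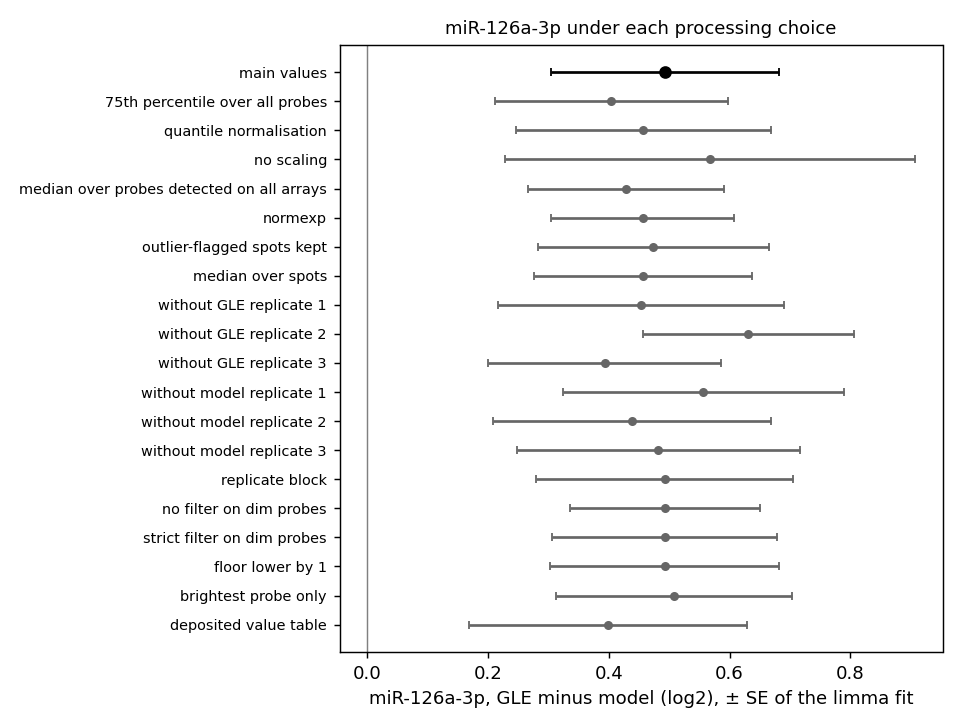
GLE minus model (log2) of miR-126a-3p for the values described in the text, at the top, and for each other choice of scaling, background, spots, filter, arrays or table, with the SE of limma's fit as the bar. The differences run from 0.39 to 0.63, all above 0, and none passed the threshold after adjustment.

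The 3p arm was next read within a list of miRNAs known from endothelium or from the growth of vessels, which holds both arms of miR-126a. Of 36 listed miRNAs 33 were tested, with the 3p arm among them, and the 5p arm was not tested. Of the 33 tested, 17, the 3p arm included, were above 0 and 16 below. Their median difference was 0.017, against 0.0078 over all tested miRNAs. Limma called 0 of them, and 1, the 3p arm itself, had an unadjusted p under 0.05. The split moved with scaling, to 11 of 33 above 0 with the 75th percentile of all probes and 20 of 33 with no scaling. The median of the list was then −0.072 and 0.092, and that of all tested miRNAs −0.080 and 0.079. The list thus moved with all tested miRNAs and had no settled direction of its own. The summed scaled signal of the list, both miR-126a arms included, was 171 to 222 in GLE and 189 to 214 in model tumours.

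After the 3p arm, the list members above 0 with the smallest p were miR-10b-5p and miR-101a-3p. MiR-10b-5p, which is known from angiogenic sprouting and from invasion of tumours, differed by 0.72 ± 0.31 (SE). Its values were −1.61, −2.39 and −1.30 in GLE and −2.52, −2.75 and −2.21 in model replicates, so GLE replicate 2 fell within the model range. MiR-101a-3p, a repressor of the chromatin enzyme Ezh2, differed by 0.36 ± 0.16 (SE), with groups that did not overlap. The adjusted p of both was 0.937 in limma.

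Below 0, the smallest p-values belonged to miR-100-5p, miR-210-3p and miR-17-5p. MiR-100-5p, known to restrain mTOR, differed by −0.47 ± 0.32 (SE). MiR-210-3p, the miRNA most widely induced by hypoxia, differed by −0.25 ± 0.20 (SE). MiR-17-5p, of a polycistron whose members promote growth, differed by −0.35 ± 0.28 (SE). Their adjusted p was 0.937 in limma for each, and none passed. MiR-217-5p and miR-218-5p of the list were detected on 0 arrays.

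**Figure D4:**
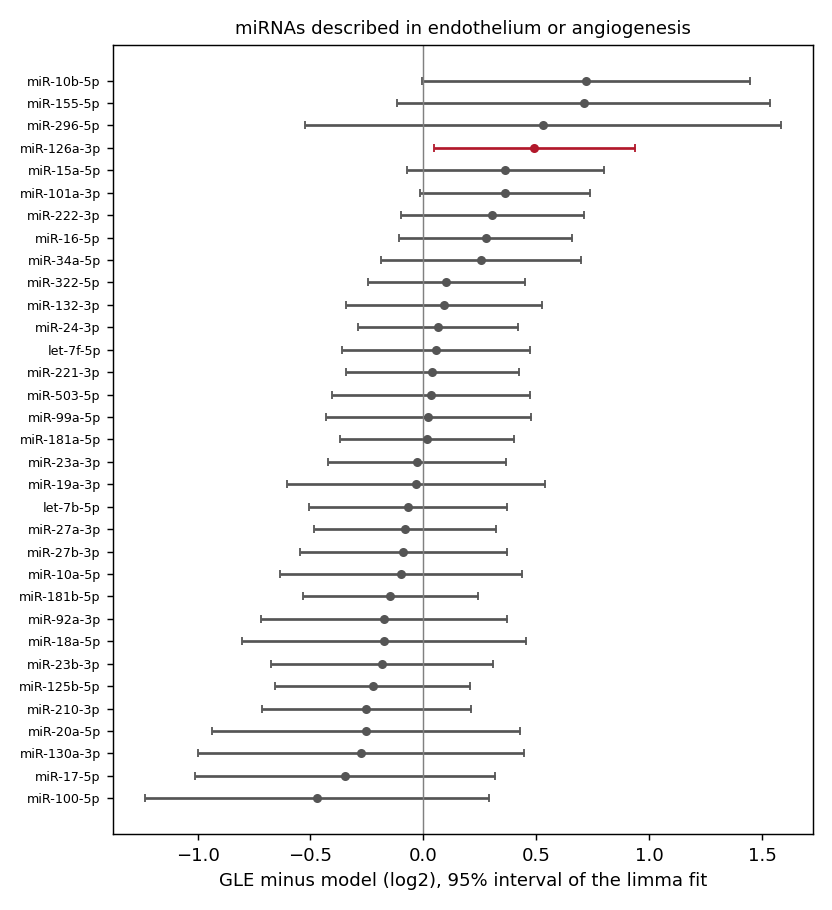
GLE minus model (log2) with the 95% interval of limma's fit for the 33 tested miRNAs known from endothelium or vessel growth, with miR-126a-3p in red. Among them 17 lie above 0 and 16 below, and the interval of miR-126a-3p, 0.047 to 0.94, is the only one that lies wholly on one side of 0.

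Across the 6 arrays the miRNAs whose pattern was most like that of the 3p arm were found by Pearson's r on the log2 scaled values, over 387 other tested miRNAs. These arrays share 1 scaling each, and the coefficients are given as a description. MiR-1839-5p was closest at r = 0.99, followed by miR-101a-3p at 0.98, miR-322-5p at 0.97, miR-22-3p at 0.96 and miR-340-5p at 0.96. Of the others compared, 25 had r above 0.9, and the median r was 0.14.

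Their own differences between groups were not called. MiR-22-3p, a widely expressed miRNA, differed by 0.52 ± 0.22 (SE) between groups, with an adjusted p of 0.937 in limma. MiR-322-5p, the mouse counterpart of miR-424 with targets in the cell cycle, differed by 0.10 ± 0.15 (SE), with an adjusted p of 0.946 in limma.

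The lowest coefficients were those of miR-31-3p at −0.90, miR-125b-5p at −0.86 and miR-99b-5p at −0.83. MiR-31-3p read −1.54, −0.91 and −2.29 in GLE and −0.85, −0.92 and −0.81 in model tumours, so GLE replicate 2, which had the lowest 3p value of its group, was the one at the model level.

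**Figure D5:**
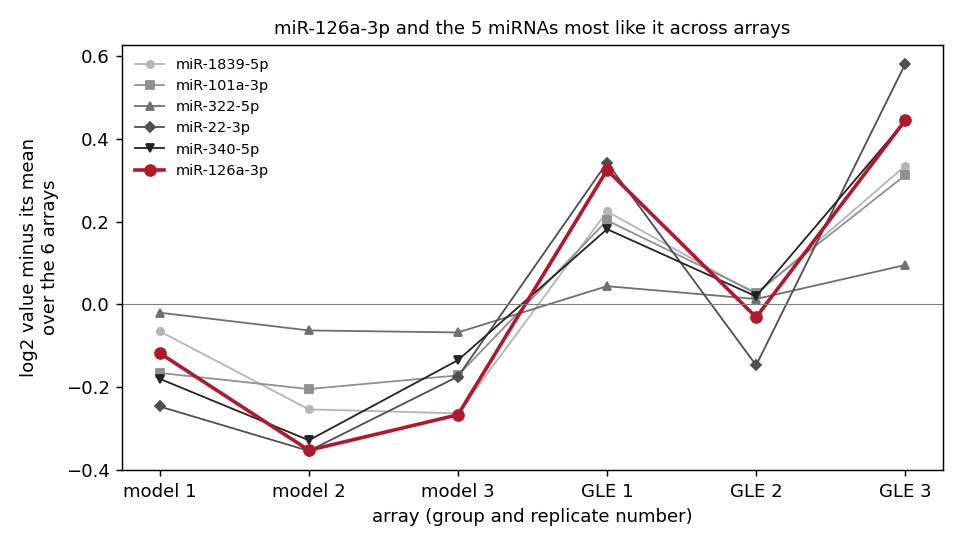
Deviation of each miRNA from its own mean over the 6 arrays (log2) for miR-126a-3p in red and for the 5 miRNAs of highest r with it, with arrays along the horizontal axis by group and replicate number. All 6 lines are lowest among model tumours and highest in GLE replicate 3, and GLE replicate 2 lies below the other GLE tumours.

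Markers of other cell types that a tumour sample can hold were read on the same arrays. The arrays hold miRNAs alone, so defining endothelial messages were not measured. Of 5 miRNAs of blood cells other than red cells, 5 of 5 differed towards GLE with a median of 0.84, none called by limma. Of all tested miRNAs 51.0% were above 0. The blood list holds both arms of miR-142a, and whether members of any list are independent of each other was not tested. The summed scaled signal of the blood list was 21.3, 10.696 and 31.1 in GLE and 9.59, 8.87 and 14.1 in model replicates. GLE replicate 2 was again the lowest of its group, and it lay within the model range.

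Of 3 fibroblast miRNAs, which include both arms of miR-199a, 3 of 3 differed towards GLE. Their sum was 4.82, 2.59 and 8.61 in GLE and 2.72, 2.16 and 3.64 in model replicates. Of 6 epithelial miRNAs 3 were tested, all below 0, with a sum of 9.35, 28.1 and 3.92 in GLE and 22.5, 16.9 and 10.4 in model replicates. GLE replicate 2 had the lowest fibroblast sum and the highest epithelial sum of its group, and the groups overlapped for both lists.

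The sum of the red cell list was 6.03 to 22.3 in GLE and 8.69 to 25.4 in model tumours, with 2 of 3 members tested and both below 0. That of the mural and smooth muscle list was 0.620 to 0.908 and 0.621 to 0.697, with 2 of 3 tested, 1 on each side of 0. That of the muscle list was 8.19, 2.43 and 2.40 in GLE replicates and 1.48 to 3.56 in model tumours, with 3 of 3 tested and 2 above 0. Those 2 stood clearly above their model mean in GLE replicate 1 alone. MiR-1a-3p read 0.33, −1.57 and −1.60 in GLE replicates, against a model mean of −1.57. MiR-133a-3p read 0.0069, −1.81 and −1.67, against a model mean of −1.68.

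Of the hepatocyte list 2 of 3 were tested, both above 0, with a sum of 0.305, 2.95 and 0.198 in GLE and 0.180 to 0.796 in model tumours. Both stood above their model mean in GLE replicate 2 alone. MiR-192-5p read −3.01, 0.26 and −3.46 in GLE replicates 1 to 3, against a model mean of −2.61. MiR-194-5p read −3.90, −0.97 and −4.17, against a model mean of −3.49. MiR-122-5p, which defines hepatocytes, reached detection in 1 GLE tumour and 1 model tumour of this hepatoma line. MiR-145a-3p of the mural list and miR-200c-3p and miR-141-3p of the epithelial list were detected on 0 arrays. No cell type list separated the groups by its sum, and the part of these lists in the difference of the 3p arm was not tested.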

How the data were processed

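The deposited scanner files, made with Agilent Feature Extraction 10.7.1.1 per the file headers, hold the authors' background-subtracted intensity per spot on a linear scale, with arrays still to be scaled. The authors also deposited values per miRNA, which by comparison with the scanner values are on a log2 scale; their column medians were −3.20, −3.32 and −3.27 for GLE and −3.32, −3.17 and −3.13 for model replicates, each equal to the column's lowest value, so the normalisation and the centring remain unknown. The file headers name mm9, but the files' positions for the 4 probes start 1 base from a match to RefSeq on GRCm38.p6, so their build is unsettled; the coordinates given are from that match.

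Control spots and 1401 to 1883 outlier spots per array were left out, and 0 spots were saturated. Averaged probes were scaled, floored at the lowest scaled value of a detected probe (median of the 6 arrays), and put on log2. A miRNA is the mean of those of its probes that every tumour of GLE, or every tumour of model, detected, which left 388 miRNAs and 720 probes. Groups were compared with limma 3.58.1 in R 4.3.3 (lmFit, eBayes, two-sided, no covariate, Benjamini-Hochberg over all tested), and single values by exact permutation. Precision is limited by the number of arrays.

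The members, the lists and the rule for named miRNAs were chosen with earlier results of these data known. Named are the members with every probe, the antisense miR-126b, the 5 highest and 3 lowest r with miR-126a-3p, and the 3 vascular miRNAs of smallest p in each direction; other miRNAs are markers of the cell type lists. Alternatives were other scalings, background correction, spot summaries, filters, floors, the deposited table, arrays left out in turn and a replicate block.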

Additional observations from a re-analysis of the deposited data

How the results depend on the processing

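For miR-126a-3p, all 19 alternatives run kept a difference above 0 and none passed the threshold: values were 0.39 to 0.63, and adjusted p-values in limma 0.0797 to 1.00. Its 18-base probe gave 0.38 to 0.61 and its 19-base probe 0.41 to 0.65 over 9 alternatives each. The number of miRNAs called by limma was 0 under 17 of 18 alternatives and ranged from 0 to 2 with arrays left out in turn; without GLE replicate 2 it was 2, with 107 at an unadjusted p under 0.05. The difference of miR-126a-5p, 0.14 with its floor, was 0.037 with normexp, 0.065 with the median over spots, 0.30 with a floor lower by 1, 0.29 from its brightest probe and 2.01 in the authors' deposited table. With arrays left out in turn it was 0.084 to 0.19, and 0.17 to 0.38 for the 21-base probe. With no floor, an alternative added after seeing the data, it was 0.43, and 0.42 for the 21-base probe alone. With normexp the 21-base probe gave 0.053 and the 20-base probe 0.021, and without the floor the 20-base probe gave 0.45. The difference between the arms, 0.35, was reversed in the authors' deposited table at −1.61, and was 0.29 to 0.44 with arrays left out in turn; without the floor it was 0.060, and 0.26 when model replicate 2 was also left out. Deviations of same-numbered arrays from their group means correlated at −0.62, −0.18 and 0.37. For arrays of different number the coefficients were −0.50 to 0.66. With 3 arrays per group these values cannot settle whether the numbers pair the tumours, and the labels do not say. With a replicate block the difference of miR-126a-3p was 0.49 ± 0.21 (SE), with an adjusted p of 0.896 in limma, and the block changed no call. A slide block was not run, since all arrays share 1 slide. The signal of miR-126a-5p, near background, limits what can be said of it.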
